A study of Mus musculus with 11 samples.

Results

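The response of the control mouse heart to pressure load was read from 5 of the 11 ventricular RNA libraries of this series, 3 taken after transverse aortic constriction (TAC), a surgical narrowing of the aorta that makes the left ventricle pump against more pressure, and 2 taken after sham surgery. Libraries were chosen by their treatment and genotype labels. The series' design text names Tnnt2-Cre+/- mice and Lmnb2fl/fl-Tnnt2 cre+/- mice, and the first are read here as the controls, so that all 5 control hearts carried a Cre recombinase active in cardiomyocytes and no floxed allele of Lmnb2, a nuclear lamina gene. The genotype label read WT for WT sham 2 and Lmnb2 WT for the other 4. Mice were 10 to 12 weeks old, and no label states how long after surgery the hearts were taken. The other 6 libraries, 3 TAC and 3 sham, came from mice labelled Lmnb2 KO, in which by design the same Cre deletes the gene. They share in the estimate of spread and are otherwise used only to test a difference from the controls. The letters that end the titles were M for both sham mice and for WT TAC 2 and 3, and F for WT TAC 1. Title numbers fall in separate ranges for TAC and sham mice, so any batch that follows them cannot be told apart from surgery.

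A heart that works against raised pressure thickens its wall. Its muscle cells enlarge, return in part to the isoforms used before birth and burn less fat, while fibroblasts divide and lay down collagen and macrophages gather. Natriuretic peptides, skeletal actin and collagens are the textbook readout of this state and are kept short here. Attention is given to the less familiar genes that moved with them.

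Total counts were 17.2 and 15.84 M in WT sham 1 and 2 and 16.37, 16.35 and 16.25 M in WT TAC 1 to 3, and 14619 of 46517 gene identifiers had enough counts to be tested. Values below are CPM, read counts scaled to library size by the TMM method, and changes are log2 differences, TAC minus sham, with their standard errors and edgeR adjusted p. Transcripts of the mitochondrial genome took 32.8% and 49.4% of counts in WT sham 1 and 2 and 13.2%, 20.6% and 30.5% in WT TAC 1 to 3. Messenger RNAs of 83 ribosomal protein genes took 1.52% and 0.651% in the sham and 6.73%, 4.00% and 1.32% in the TAC libraries. Their part in the results below was not tested beyond the fit with this share as a covariate, which kept 436 (43.1%) of the 1011 calls given below. The 10 markers of cardiomyocytes, the labelled tissue's main muscle cell, summed to 71069.5 and 46398 CPM in sham and 61607, 58857 and 46305 CPM in TAC libraries. Lmnb2 itself measured 4.44 and 3.86 CPM after sham surgery and 2.86, 2.16 and 6.699 CPM after TAC, a change of -0.08 ± 0.62 (adjusted p = 0.949). Nothing in the labels says more of how the mice relate, so p-values measure the spread between these libraries. In bulk tissue, more cells of a type and more RNA per cell cannot be told apart.

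In the controls 1011 genes (6.92% of those tested) passed an adjusted p of 0.05, of which 567 (3.88%) were higher and 444 (3.04%) lower after TAC. The rises were larger than the falls, with a median of 2.46 against -1.55 on the log2 scale, and 373 rises against 112 falls were at least 4-fold. The 28 rises without a sham count were set to their lower bounds for a second median, which was also 2.46. Even the smallest bound, 6.30-fold, lay above that median, so it could not move. The median over all genes tested was 0.05. In each of the 1011 genes the 3 TAC libraries lay on one side of both sham libraries, which was true of 40.3% of all genes tested. Protein-coding genes made up 964 of the 1011 calls and 13293 of the 14619 genes tested. When libraries were scaled by their totals alone the median of all genes rose to 0.37 and the calls split into 1044 higher and 133 lower, so a fall below holds relative to the bulk of genes. The count rested on the small sham group. It was 30 without WT sham 1 and 88 without WT sham 2, and it was 398, 363 and 2663 without WT TAC 1, 2 and 3.

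**Figure D1:**
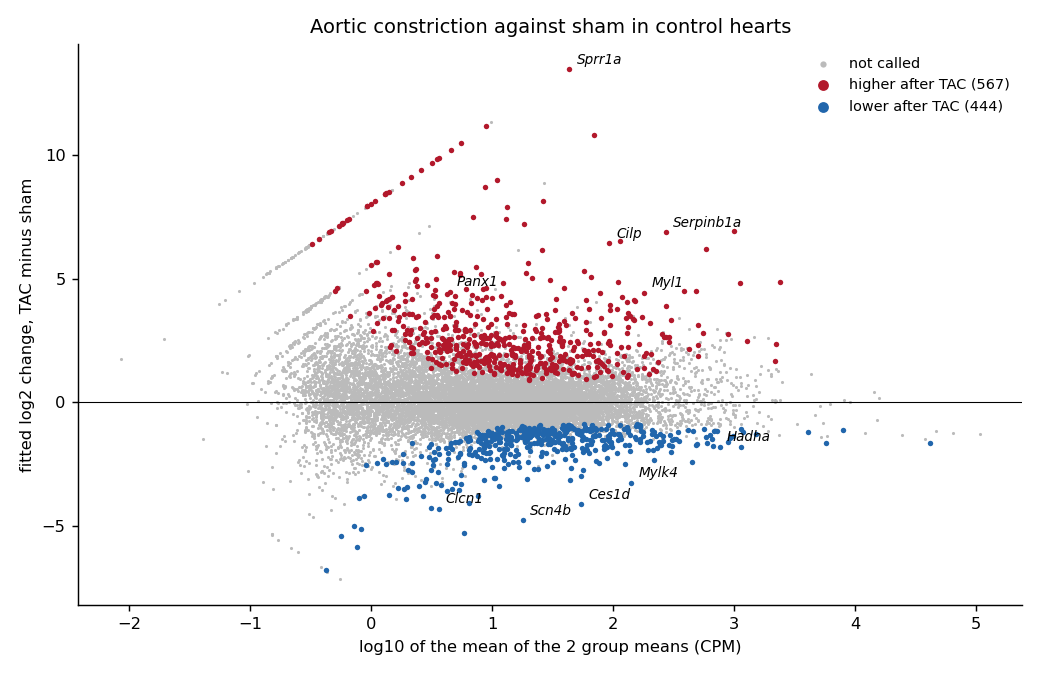
Each point is 1 tested gene of the control hearts, with its mean level (log10 of the mean of both group means, in CPM) on the horizontal axis and the fitted log2 change, TAC minus sham, on the vertical axis. The 567 genes called higher are red and the 444 called lower blue, and the diagonal bands at the upper left are genes with almost no counts after sham surgery, whose fitted change depends on the prior count.

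The TAC hearts did not all sit at the same distance from sham. WT TAC 3 was the TAC library nearest to sham in 329 of the 567 rises (58.0%) and in 309 of the 444 falls (69.6%). Its median over the rises was 1.62 above the sham mean on the log2 scale (0.5 CPM added), against 2.18 in WT TAC 1 and 2.17 in WT TAC 2. Over the falls the medians were -1.22, -1.73 and -1.65 in the same order. This was not uniform, since WT TAC 3 was the highest of the 3 in 106 rises. One was Clu, the gene of the secreted chaperone clusterin, at 1315, 2025 and 3198 CPM in WT TAC 1 to 3. Another was Fmod, the collagen-binding proteoglycan fibromodulin, at 8.28, 11.3 and 32.98 CPM. Synpo2l, an actin-binding protein of the Z-disc, measured 88.7 and 77.1 CPM after sham surgery and 236, 256 and 485 CPM after TAC, with WT TAC 3 again the highest.

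**Figure D2:**
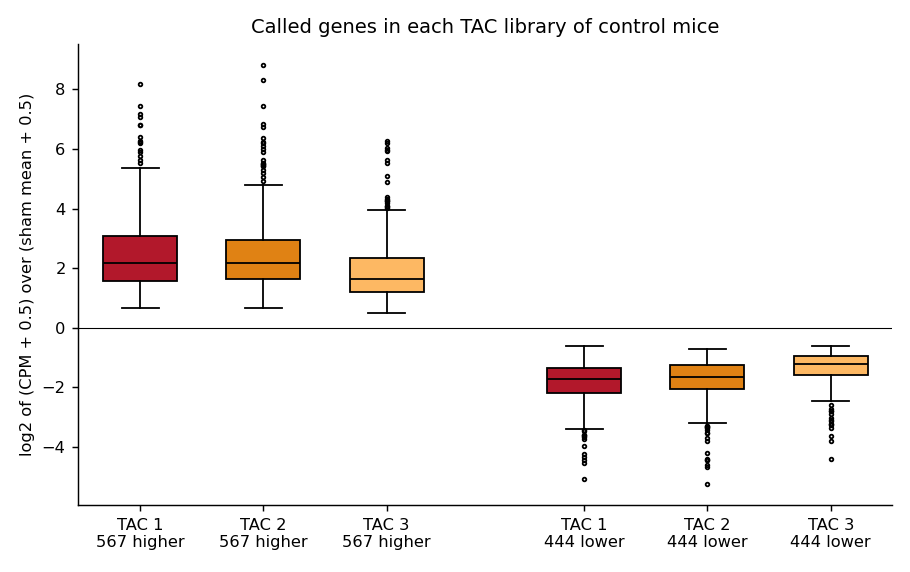
Boxes give the median and quartiles, over the genes called higher (left 3 boxes) or lower (right 3 boxes), of the log2 ratio of a TAC library to the mean of both sham libraries (0.5 CPM added; whiskers reach 1.5 interquartile ranges, and points lie beyond). The medians of WT TAC 3, at 1.62 and -1.22, lie nearer to 0 than those of WT TAC 1 and 2.

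A core of 27 genes was called in this comparison and also in each of 23 other settings, which changed the scaling, the filter, the test, the covariates or the libraries. They were picked out after their values were seen. The 18 that rose were Litaf, Serpinf1, Sparc, Sfrp1, Emp1, C1qtnf6, Loxl3, Fbn1, Thbs1, Ltbp2, Mfap4, Postn, Fn1 and 5 collagen genes (Col1a2, Col3a1, Col5a2, Col8a1 and Col12a1). Outside the matrix, Emp1 (chromosome 6, 135362545 to 135383173, plus strand in GRCm38), which encodes a small membrane glycoprotein, measured 37.2 and 40.5 CPM after sham surgery and 417, 392 and 281 CPM after TAC. All 3 TAC libraries were well above both sham libraries, a change of 3.23 ± 0.36 (adjusted p = 0.00149). Sfrp1, a secreted antagonist of Wnt ligands, measured 7.13 and 7.72 CPM after sham surgery and 49.3, 81.6 and 55.4 CPM after TAC, with WT TAC 2 the highest and the sham libraries close together (change 3.06 ± 0.35 (adjusted p = 0.00149)). Litaf, a protein of late endosomes, measured 6.19 and 5.27 CPM after sham surgery and 21.8, 24.9 and 23.1 CPM after TAC and changed by 2.02 ± 0.25. C1qtnf6, a secreted protein of the C1q and TNF family, measured 4.88 and 2.76 CPM after sham surgery and 35.8, 59.5 and 37.1 CPM after TAC and changed by 3.52 ± 0.43. Serpinf1, the secreted serpin PEDF, changed by 2.25 ± 0.28.

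The 9 that fell in every setting are known from metabolism, ion channels, tubulin and cilia. Ces1d (chromosome 8, 93166068 to 93197838, minus strand), a carboxylesterase that splits stored triglyceride, measured 119.6 and 85.3 CPM after sham surgery and 3.87, 3.68 and 10.1 CPM after TAC. WT TAC 3 kept the most of it and was still far under both sham libraries, for a change of -4.12 ± 0.55 (adjusted p = 0.002804). Phkg1, the catalytic subunit of muscle phosphorylase kinase, which starts glycogen breakdown, measured 18.1 and 19.4 CPM after sham surgery and 1.73, 2.63 and 2.28 CPM after TAC (-3.07 ± 0.44 (adjusted p = 0.00367)). Dbt, a core subunit of the enzyme complex for leucine, isoleucine and valine, measured 109 and 118 CPM after sham surgery and 31.6, 21.6 and 35.4 CPM after TAC, and Ppm1k, the phosphatase that switches this complex on, 113 and 146 CPM after sham surgery and 21.1, 14.6 and 35.1 CPM after TAC. Dbt and Ppm1k changed by -1.94 ± 0.26 and -2.45 ± 0.34, with WT TAC 2 the lowest for both. Ttll1 belongs to the enzymes that add glutamate to tubulin, and Armc2 and Cabcoco1 are genes known from cilia and centrosomes. Armc2 measured 50.6 and 46.1 CPM after sham surgery and 6.55, 8.999 and 8.72 CPM after TAC and changed by -2.58 ± 0.32, and Cabcoco1 by -2.43 ± 0.33. The potassium channel genes Kcnj3 and Kcnv2 changed by -2.73 ± 0.34 and -3.60 ± 0.44. Kcnj3, a channel subunit opened by G proteins, measured 89.5 and 108 CPM after sham surgery and 14.5, 12.7 and 17.4 CPM after TAC, without overlap.

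**Figure D3:**
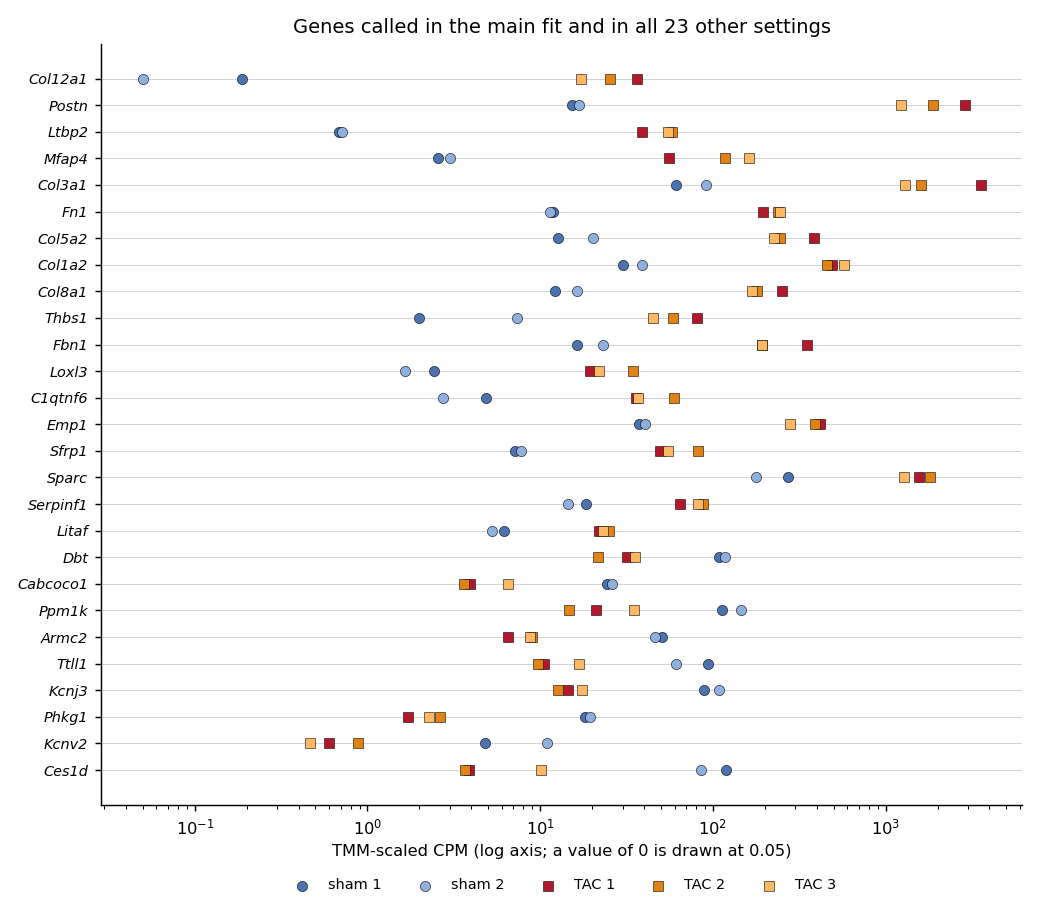
Rows are the 27 genes called in every setting, ordered by their log2 change, and points are the 5 control libraries in CPM on a log axis (circles sham, squares TAC). The 18 upper genes have all squares to the right of both circles and the 9 lower genes have them to the left.

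Promoter letters were searched in the 250 bases before RefSeq gene starts (build GRCm38.p6), since many genes moved together. A promoter was found by symbol for 418 of the 567 rises, 341 of the 444 falls and 10944 of all genes tested, and both strands were read. The AP-1 letters TGANTCA, which bind Fos and Jun, stood in 38 of the 418 rising promoters (9.09%), in 19 of the 341 falling ones (5.57%) and in 5.59% of those tested (7.82% of all 27025 genes of the table). The CArG box, bound by serum response factor, stood in 12 (2.87%), 3 (0.880%) and 1.41% (1.62% of all). The MEF2 motif of muscle genes stood in 7 of the rising (1.67%), 14 of the falling (4.11%) and 2.33% of the tested promoters (3.42% of all). The TEAD letters GGAATG stood in 63 (15.1%), 43 (12.6%) and 13.1% (14.4% of all). Sequences of 6 genes, chosen among those with a match, are given 5′ to 3′, up to the base before the start, with matches in capitals. Most rising and falling promoters had no match to any of these motifs. Sprr1a had AP-1 letters at 146 to 140 and 116 to 110 bases before the start (chr3:92485882-92486131, minus strand), and C1qtnf6 at 169 to 163 (chr15:78529652-78529901, minus strand). Myl9 had a CArG box at 161 to 152 (chr2:156775214-156775463, plus strand) and Acta1 at 73 to 64 (chr8:123894776-123895025, minus strand). Among genes that fell, MEF2 matches lay at 103 to 94 in Mylk4 (chr13:32783965-32784214, minus strand) and at 51 to 42 in Clcn1 (chr6:42286435-42286684, plus strand). A match describes these letters only and is not a shown binding site.
Sprr1a: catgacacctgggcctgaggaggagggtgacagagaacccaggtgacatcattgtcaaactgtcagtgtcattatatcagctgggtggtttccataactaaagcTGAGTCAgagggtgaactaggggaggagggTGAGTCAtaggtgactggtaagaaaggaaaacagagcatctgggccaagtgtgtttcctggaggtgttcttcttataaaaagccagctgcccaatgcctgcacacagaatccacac
C1qtnf6: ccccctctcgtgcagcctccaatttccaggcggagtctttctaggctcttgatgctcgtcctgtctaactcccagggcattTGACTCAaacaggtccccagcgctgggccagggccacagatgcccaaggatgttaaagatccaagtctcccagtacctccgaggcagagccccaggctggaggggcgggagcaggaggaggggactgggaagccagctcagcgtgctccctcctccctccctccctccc
Myl9: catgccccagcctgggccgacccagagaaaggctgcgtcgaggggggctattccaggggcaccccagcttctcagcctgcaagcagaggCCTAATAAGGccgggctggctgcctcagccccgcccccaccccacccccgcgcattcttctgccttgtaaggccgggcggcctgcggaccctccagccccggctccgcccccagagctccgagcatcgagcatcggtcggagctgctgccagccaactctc
Acta1: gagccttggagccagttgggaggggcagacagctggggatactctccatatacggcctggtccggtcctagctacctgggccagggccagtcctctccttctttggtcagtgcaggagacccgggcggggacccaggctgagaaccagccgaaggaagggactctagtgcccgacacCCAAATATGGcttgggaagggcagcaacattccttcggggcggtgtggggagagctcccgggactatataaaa
Mylk4: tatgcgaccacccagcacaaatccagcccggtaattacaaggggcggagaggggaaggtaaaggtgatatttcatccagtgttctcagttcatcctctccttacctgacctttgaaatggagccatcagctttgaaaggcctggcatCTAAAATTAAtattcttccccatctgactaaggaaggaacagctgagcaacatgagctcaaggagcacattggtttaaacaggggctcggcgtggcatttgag
Clcn1: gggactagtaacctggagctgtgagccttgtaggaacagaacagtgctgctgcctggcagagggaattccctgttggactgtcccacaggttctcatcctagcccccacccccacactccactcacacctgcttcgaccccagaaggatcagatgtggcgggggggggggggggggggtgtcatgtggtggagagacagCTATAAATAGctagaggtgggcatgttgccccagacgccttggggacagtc

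The largest rises outside the textbook genes came from nearly silent genes. Sprr1a (chromosome 3, 92483952 to 92485895, minus strand), a small proline-rich protein of the epidermal envelope that stressed heart muscle also makes, had 0 counts in both sham libraries and 71.7, 159 and 30.3 CPM in WT TAC 1 to 3. It was at least 812-fold higher, against a floor of 3 counts over the sham group, and at least 474-fold without WT TAC 2 (edgeR adjusted p = 0.0034998). Muc15, a membrane mucin, also had 0 sham counts and 9.83, 9.93 and 1.35 CPM after TAC, at least 64.96-fold, with WT TAC 3 far below the others. C1qtnf3 had 1 sham count and 15.6, 39.1 and 10.9 CPM after TAC, a ratio of 615 (95% counting interval 110.2 to 24330.3), and 375 without WT TAC 2. Clec4e, a macrophage receptor of dying cells, and Ifi27l2b, an interferon-linked gene with close copies, had 0 sham counts and were at least 32.9-fold and 47.9-fold higher. Ifi27l2b measured 6.67, 8.71 and 0.2596 CPM in WT TAC 1 to 3, nearly none of it in WT TAC 3, and its bound moved to 31.1-fold or 73.7-fold when WT TAC 2 or WT TAC 3 was left out. The cell division genes Cenpe, Ccnb1 and Knl1 were at least 25.9-fold, 24.7-fold and 19.6-fold higher. Without WT TAC 3 the bound of Cenpe was 13.8-fold and that of Knl1 12.1-fold.

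Genes nearly lost after TAC covered ion channels, a fatty acid enzyme and vesicle proteins. Scn4b (chromosome 9, 45138395 to 45154152, plus strand), a subunit of the sodium channel, measured 33.9 and 35.7 CPM after sham surgery and 0.536, 0.877 and 2.34 CPM after TAC (-4.78 ± 1.08 (adjusted p = 0.0236)), and Clcn1, the chloride channel of skeletal muscle, 7.502 and 6.298 CPM after sham surgery and 0.238, 0.584 and 0.208 CPM after TAC (-4.31 ± 0.65 (adjusted p = 0.00442)). The order of the TAC libraries differed between these genes, with WT TAC 3 the highest for Scn4b and the lowest for Clcn1. Acsm5, a mitochondrial medium-chain acyl-CoA ligase, measured 6.002 and 5.83 CPM after sham surgery and 0.179, 0.351 and 0.364 CPM after TAC (-4.27 ± 0.96). Sh3gl2, an endophilin of endocytosis, and Syt3, a synaptotagmin, changed by -3.81 ± 0.87 and -3.88 ± 0.96. Grhl2, an epithelial transcription factor, changed by -3.91 ± 0.95. Samd13 measured 1.38 and 0.866 CPM in the sham libraries and had 1 count over the 3 TAC libraries, a ratio of sham to TAC of 61.1 (95% counting interval 10.2 to 2487). Gal3st3, a sulfotransferase of galactose, changed by -3.53 ± 0.81. The eosinophil chemokine Ccl11 also fell, from 2.75 and 4.09 to 0.298, 0.0584 and 0.519 CPM (-3.50 ± 0.72).

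By CPM rather than by fold, other genes carried the change. Among called nuclear genes, the 10 largest gains were those of Nppb, Ankrd1, Des, Col3a1, Postn, Clu, Sparc, Nppa, Aspn and Gpx3. Gpx3, the secreted glutathione peroxidase, measured 148 and 129 CPM after sham surgery and 819, 1383 and 691 CPM after TAC, with WT TAC 2 the highest (2.80 ± 0.57 (adjusted p = 0.0156)). Des, the intermediate filament desmin of muscle, measured 1192 and 886 CPM after sham surgery and 3042, 4187 and 2702 CPM after TAC (1.67 ± 0.39 (adjusted p = 0.0258)). Aspn, a small proteoglycan related to decorin, measured 35.1 and 45.9 CPM after sham surgery and 1665, 739 and 389 CPM after TAC, with WT TAC 1 the highest and WT TAC 3 the lowest of the TAC libraries (4.52 ± 0.94 (adjusted p = 0.0175)). The 10 largest losses were those of Pln, Atp2a2, Tnni3, Idh2, Ech1, Acadm, Hadhb, Sdha, Tcap and Hadha. Hadha and Hadhb encode the trifunctional protein of fat oxidation. Hadha measured 1282 and 1070.1 CPM after sham surgery and 226, 308 and 479.5 CPM after TAC and Hadhb 1403 and 1281 CPM after sham surgery and 341, 446 and 537 CPM after TAC (-1.80 ± 0.40 and -1.60 ± 0.29). Ech1, an isomerase needed for unsaturated fat, measured 2239 and 1278 CPM after sham surgery and 451, 668 and 406 CPM after TAC (-1.79 ± 0.36) and Idh2, the NADPH-making mitochondrial isocitrate dehydrogenase, 2557 and 1769 CPM after sham surgery and 662, 1162 and 855 CPM after TAC (-1.28 ± 0.32).

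Several secreted growth factors rose and a few fell. Of 71 tested growth factor and cytokine genes 14 were higher (19.7%), 4 lower (5.63%) and 53 not called (median 0.34, against 0.05 for all genes). Members of this and the later lists were chosen with earlier results of these data known. Shares set beside those of all genes therefore describe the lists only and are not a test. Cilp (chromosome 9, 65265180 to 65280605, plus strand), a cartilage matrix protein that binds TGF-beta, measured 2.501 and 1.65 CPM after sham surgery and 188, 193 and 168 CPM after TAC. The 3 TAC libraries were close to each other and far above both sham libraries (6.45 ± 0.79 (adjusted p = 0.00211)). Ptn, the heparin-binding growth factor pleiotrophin, measured 1.75 and 5.83 CPM after sham surgery and 232, 80.8 and 66.1 CPM after TAC (5.07 ± 0.92 (adjusted p = 0.00998)), and its relative Mdk, midkine, changed by 2.87 ± 0.70. Cthrc1, a secreted protein of activated fibroblasts, had 0 sham counts and 12.5, 12.4 and 2.44 CPM after TAC, at least 84.4-fold higher. Fstl1, Pdgfc, Hbegf, Igf1, Tgfb2 and Tgfb3 changed by 3.35, 2.49, 2.28, 2.26, 2.22 and 2.07. The 4 lower genes were Fgf9 (-2.48 ± 0.63), Ctf1 (-1.80 ± 0.45), Angpt1 (-1.25 ± 0.34) and Fgf13 (-1.03 ± 0.26). Ctf1 encodes cardiotrophin 1, a cytokine of the heart muscle itself, and measured 7.502 and 6.46 CPM after sham surgery and 0.953, 1.75 and 3.27 CPM after TAC. Higher calls numbered 0 without WT sham 1, 4 without WT sham 2, 11, 11 and 18 without WT TAC 1, 2 and 3, and 16 with library totals, and lower calls 0, 0, 0, 0, 6 and 0.

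The called receptors of such factors were all higher. Of 58 receptor genes 6 were higher (10.3%, against 3.88% of all genes tested), 0 lower and 52 not called, with a median of 0.10. Tnfrsf12a, the receptor of the cytokine TWEAK, measured 36.9 and 20.2 CPM after sham surgery and 389.9, 441 and 116 CPM after TAC (3.47 ± 0.72 (adjusted p = 0.0173)). Tnfrsf11b, the decoy receptor osteoprotegerin, had 1 sham count and 4.65, 1.23 and 0.779 CPM after TAC, a ratio of 61.5 (95% counting interval 10.8 to 2452), and 28.4 without WT TAC 1. Il4ra, Egfr, Tgfbr1 and Osmr, receptors of interleukin 4, epidermal growth factor, TGF-beta and oncostatin M, changed by 1.71, 1.65, 1.58 and 1.24. The 6 calls became 0, 0, 3, 3 and 6 as WT sham 1, WT sham 2 and WT TAC 1, 2 and 3 were left out in turn. Among orphan and adhesion receptors named Gpr or Adgr, 4 of 59 were higher (6.78%) and 3 lower (5.08%). Of all genes tested 3.88% were higher and 3.04% lower. Gpr176 had 3 sham counts and 1.61, 3.86 and 1.19 CPM after TAC, a ratio of 20.9 (95% counting interval 6.97 to 103; adjusted p = 0.0296), and 13.3 without WT TAC 2. Gpr39, a receptor that senses zinc, had 1 sham count and 1.01, 0.993 and 1.04 CPM after TAC, a ratio of 29.2 (5.01 to 1173; adjusted p = 0.0451). Gpr22, an orphan receptor of heart and brain, measured 83.1 and 109 CPM after sham surgery and 34.6, 24.3 and 17.2 CPM after TAC (-1.92 ± 0.37). No call of this family was made without WT sham 1, without WT sham 2 or without WT TAC 2. Panx1, which forms ATP-releasing channels in the membrane, measured 0.438 and 0.315 CPM after sham surgery and 9.65, 10.99 and 5.14 CPM after TAC (4.47 ± 0.58 (adjusted p = 0.00239)), far above sham in all TAC libraries, and was named after its values were seen.

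Several protease inhibitors of the serpin family rose. Of 36 tested serpin and clotting genes 10 were higher (27.8%) and 0 lower, with a median of 1.30. Serpinb1a (chromosome 13, 32842092 to 32851185, minus strand), an intracellular inhibitor of neutrophil elastase, measured 5.06 and 4.09 CPM after sham surgery and 688, 886 and 55.98 CPM after TAC, with far less in WT TAC 3 than in the other TAC libraries and still above sham (6.89 ± 1.38 (adjusted p = 0.0153)). Serpinb9b, of the granzyme inhibitor group, had 2 sham counts and 162, 254 and 2.54 CPM after TAC, a ratio of 1920.1 (95% counting interval 531 to 15858), and 1100.4 without WT TAC 2 or 2990.1 without WT TAC 3. Wfdc18, a small secreted protein of the WAP family in the same list, had 0 sham counts and 41.6, 10.99 and 0.987 CPM, at least 163-fold higher and at least 54.4-fold without WT TAC 1 or 250.3-fold without WT TAC 3. Serpinb1a, Serpinb1c and Serpinb9b have near-identical neighbours, and no source says how reads with several alignments were treated, so their split is uncertain. Among secreted members Serpina3n measured 6.44 and 15.4 CPM after sham surgery and 29.6, 109 and 41.2 CPM after TAC (2.47 ± 0.62), and Plat, the tissue plasminogen activator, changed by 1.17 ± 0.32. F2r, the thrombin receptor, changed by 1.97 ± 0.33. The 10 calls became 1 without either sham library, 6, 5 and 16 without WT TAC 1, 2 and 3, and 14 with library totals.

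Among genes that fold, cross-link and export collagen the calls were mostly rises. Of 37 tested, 11 were higher (29.7%) and 1, Mia2, was lower (median 0.72). Lox (chromosome 18, 52516067 to 52529867, minus strand), which cross-links collagen, measured 1.63 and 3.31 CPM after sham surgery and 333, 243 and 100.4 CPM after TAC (6.52 ± 0.81 (adjusted p = 0.00211)), highest in WT TAC 1. Its relatives Loxl1, Loxl2, Loxl3 and Loxl4 changed by 2.32, 2.59, 3.62 and 3.90, so all 5 members of the family rose. P4ha3, a proline hydroxylase subunit, had 0 sham counts and was at least 25.2-fold higher. Kdelr3, a retrieval receptor of the Golgi, measured 6.81 and 4.02 CPM after sham surgery and 43.8, 39.6 and 12.2 CPM after TAC (2.55 ± 0.57). Of 25 general chaperone genes of the endoplasmic reticulum 2 were higher and 2 lower (8.0% each; median -0.38), with Txndc5 and P4hb at 1.14 ± 0.24 and 1.88 ± 0.52 and Hyou1 and Syvn1 at -1.34 ± 0.36 and -1.23 ± 0.34. Txndc5, a disulfide isomerase of fibroblasts, measured 30.5 and 27.003 CPM after sham surgery and 64.1, 62.8 and 63.1 CPM after TAC, with the TAC libraries close together. Of 42 genes of glycosaminoglycan synthesis 3 were higher (7.14%) and 0 lower (median 0.53), namely Sulf1 (2.17 ± 0.42 (adjusted p = 0.0131)), Dsel and Chpf. Collagen folding calls were 2, 3, 9, 8 and 13 higher without WT sham 1, WT sham 2 and WT TAC 1, 2 and 3, chaperone calls 0, 0, 1, 1 and 3, and glycosaminoglycan calls 0, 1, 1, 2 and 10.

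Several actin regulators rose. Of 77 tested actin cytoskeleton genes 18 were higher (23.4%) and 0 lower, with 64 changes above 0 and a median of 0.67. Myl9, a myosin light chain of smooth muscle and of contractile fibroblasts, measured 15.3 and 7.79 CPM after sham surgery and 240.0, 255 and 37.6 CPM after TAC (3.94 ± 0.79 (adjusted p = 0.0155)), and Csrp2, a LIM protein, 9.75 and 7.56 CPM after sham surgery and 152, 157 and 47.3 CPM after TAC (3.78 ± 0.72 (adjusted p = 0.0118)). WT TAC 3 was the lowest TAC library for both. Pdlim3, an actinin-binding protein of the Z-disc, measured 7.25 and 9.45 CPM after sham surgery and 76.6, 110.2 and 31.002 CPM after TAC (3.12 ± 0.62). Diaph3, a formin that lengthens actin filaments, measured 0.125 and 0.157 CPM after sham surgery and 4.65, 1.05 and 2.28 CPM after TAC (4.17 ± 1.11). The focal adhesion genes Zyx, Tes, Actn1 and Pdlim7 changed by 1.66, 1.93, 2.06 and 2.38. Of 19 annexin and S100 genes, which encode calcium-binding proteins of membranes, 7 were higher (36.8%) and 0 lower (median 1.18). S100a11 measured 15.4 and 17.2 CPM after sham surgery and 93.9, 186 and 56.8 CPM after TAC (2.78 ± 0.45 (adjusted p = 0.00595)) and Anxa1 22.01 and 18.8 CPM after sham surgery and 212, 181 and 53.1 CPM after TAC (2.87 ± 0.56 (adjusted p = 0.0141)), and S100a6 measured 29.1 and 15.3 CPM after sham surgery and 398, 314 and 45.1 CPM after TAC, where WT TAC 3 came nearest to the sham libraries (3.51 ± 0.86). Actin calls were 0, 0, 9, 8 and 27, and annexin and S100 calls 0, 0, 5, 5 and 11, without WT sham 1, WT sham 2 and WT TAC 1, 2 and 3. Markers of pericytes and smooth muscle, some shared with these genes, summed to 2357 and 1829 CPM in sham and 3899.6, 5206 and 3638 CPM in TAC libraries. The rise of the sums came from Des, also a gene of heart muscle, at 1192 and 886 CPM in sham and 3042, 4187 and 2702 CPM in TAC libraries. Of the 13 markers 3 were higher and 1 lower, with a median of 0.27. The part of these markers in the result was not tested.

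Microtubule genes changed in both directions, with a shift between tubulin genes. Of 52 microtubule genes 6 were higher (11.5%, against 3.88% of all genes tested) and 3 lower (5.77%, against 3.04%), with a median of 0.16. Tubb3, a beta-tubulin of neurons, measured 0.438 and 0 CPM after sham surgery and 10.7, 14.3 and 3.43 CPM after TAC (5.29 ± 1.20 (adjusted p = 0.0238)), Tubb2b 0.438 and 1.102 CPM after sham surgery and 11.4, 22.6 and 8.41 CPM after TAC (4.21 ± 0.65 (adjusted p = 0.00525)) and Tuba1a 36.6 and 19.8 CPM after sham surgery and 286, 382 and 43.1 CPM after TAC (3.07 ± 0.75 (adjusted p = 0.0319)). Tuba8, an alpha-tubulin of muscle, measured 169 and 118 CPM after sham surgery and 39.6, 57.03 and 47.2 CPM after TAC (-1.58 ± 0.31 (adjusted p = 0.0135)), while Tuba4a, at 654 and 505 CPM after sham surgery and 195, 289.7 and 185 CPM after TAC, did not pass (-1.38 ± 0.40 (adjusted p = 0.0572)). Per kilobase of exon, Tuba4a held 62.4% and 65.2% after sham surgery and 19.9%, 22.3% and 45.7% after TAC of the summed alpha-tubulin level of 5 genes. Tuba1a held 7.16% and 5.24% after sham surgery and 59.97%, 60.2% and 21.9% after TAC, so it went from a minor to the leading alpha-tubulin gene in WT TAC 1 and 2 and stayed below Tuba4a in WT TAC 3. Among 7 beta-tubulin genes Tubb4b held 71.9% and 64.6% after sham surgery and 43.3%, 46.4% and 41.01% after TAC. These shares are descriptions, and the tubulin genes are close copies whose reads the counting could split. Ttll1, the tubulin glutamylating enzyme, measured 93.3 and 61.4 CPM after sham surgery and 10.5, 9.7002 and 16.8 CPM after TAC (-2.65 ± 0.34 (adjusted p = 0.00214)), and Tppp, which bundles microtubules, 17.6 and 22.1 CPM after sham surgery and 3.22, 2.92 and 7.37 CPM after TAC (-2.13 ± 0.38). The microtubule-associated Map1b, Map6 and Map1a changed by 2.31 ± 0.41, 2.26 ± 0.47 and 1.98 ± 0.51. Without WT sham 1 or WT sham 2 there were 0 and 1 higher and 1 and 1 lower calls, and without WT TAC 3 there were 13 and 7.

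**Figure D4:**
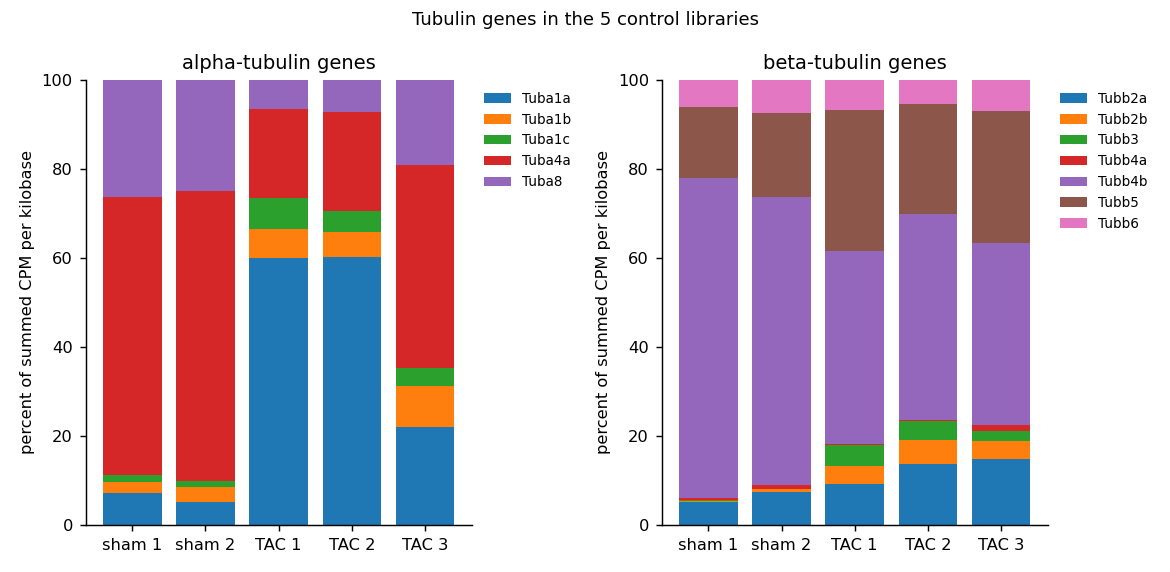
Bars give, for each control library, the share of each alpha-tubulin gene (left) or beta-tubulin gene (right) in the summed CPM per kilobase of exon of its class. Tuba4a (red, left) holds 62.4% and 65.2% in the sham libraries, and Tuba1a (blue, left) 60.0%, 60.2% and 21.9% in WT TAC 1 to 3.

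Several genes of fast skeletal muscle rose after TAC. Tnnt3, the fast troponin T, measured 0.125 and 0.236 CPM after sham surgery and 76.4, 72.5 and 7.997 CPM after TAC (8.16 ± 1.52 (adjusted p = 0.0111)), and Myl1, a light chain of fast muscle, 14.4 and 17.3 CPM after sham surgery and 650.2, 284 and 102 CPM after TAC (4.45 ± 0.80 (adjusted p = 0.00968)). All of these TAC values were lowest in WT TAC 3. Mylpf, the regulatory light chain of fast muscle, measured 0.0625 and 0.0787 CPM after sham surgery and 3.69, 0.818 and 0.779 CPM after TAC. With 2 sham counts its ratio was 24.6 (95% counting interval 6.61 to 206; adjusted p = 0.0241), and 11.4 without WT TAC 1. Myoz1, a Z-disc protein of fast fibres, had 1 sham count and 5.66, 3.56 and 0.675 CPM after TAC, a ratio of 91.2 (16.2 to 3625; adjusted p = 0.0236), and 58.4 without WT TAC 1. Of 10 skeletal muscle markers 5 were tested and 3 were higher, Tnnt3, Mylpf and Acta1. Myl1 and Myoz1 are not in this marker list and were named after their values were seen. Tnni2, the fast troponin I, did not pass. It measured 1.88 and 0.551 CPM after sham surgery and 25.6, 17.6 and 1.45 CPM after TAC, with WT TAC 3 below WT sham 1. Ckm, the muscle creatine kinase, which heart muscle also makes, did not pass at 1539 and 862 CPM after sham surgery and 451, 849 and 656 CPM after TAC. Ckm and Acta1 together give nearly all of the marker list's summed level, which was 1711 and 1031 CPM in sham and 929, 1682 and 2093 CPM in TAC libraries and overlapped between the groups. The fast myosin genes Myh1, Myh2 and Myh4 had between 0 and 15 counts in each control library and Myog had 0, and the part of skeletal muscle tissue in these results was not tested. Mylk4, a myosin light chain kinase of striated muscle, went the other way, at 251 and 259 CPM after sham surgery and 11.3, 6.14 and 63.4 CPM after TAC (-3.24 ± 0.81 (adjusted p = 0.0346)). Uchl1, a deubiquitinating enzyme of neurons, measured 10.3 and 4.17 CPM after sham surgery and 233, 348 and 57.2 CPM after TAC (4.87 ± 0.95 (adjusted p = 0.0141)) and the adhesion molecule Ncam1 1.56 and 3.39 CPM after sham surgery and 12.2, 18.4 and 14.96 CPM after TAC (2.62 ± 0.50 (adjusted p = 0.0116)). They were the 2 called of 8 tested Schwann cell and neuron markers, whose median was -0.69. Skeletal muscle calls were 0, 0, 2, 2 and 4, and Schwann cell and neuron calls 0, 0, 2, 2 and 2, without WT sham 1, WT sham 2 and WT TAC 1, 2 and 3.

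The called guidance genes were an ephrin and receptors of guidance cues, and all were lower. Of 54 semaphorin, netrin, slit and ephrin genes 0 were higher and 3 lower (5.56%, against 3.04% of all genes tested; median -0.24, and 0.13 with library totals), and each of the 3 had close values in both sham libraries. Efnb3, a membrane ligand of Eph receptors, measured 81.9 and 76.8 CPM after sham surgery and 4.53, 3.27 and 19.3 CPM after TAC (-3.13 ± 0.68 (adjusted p = 0.0208)). Epha4, an Eph receptor, measured 34.4 and 35.1 CPM after sham surgery and 3.57, 1.11 and 7.58 CPM after TAC (-3.08 ± 0.69 (adjusted p = 0.0232)), and Plxnb1, a semaphorin receptor, 27.4 and 27.3 CPM after sham surgery and 3.28, 3.27 and 8.88 CPM after TAC (-2.41 ± 0.53 (adjusted p = 0.0212)). WT TAC 3 was the highest TAC library for all 3. Of 47 T-tubule, dyad and caveola genes 1 was higher (2.13%) and 2 lower (4.26%), near the shares of all genes (median -0.07, and 0.24 with library totals). Hrc, a calcium-binding protein of the sarcoplasmic reticulum, measured 737 and 787 CPM after sham surgery and 62.2, 74.4 and 293 CPM after TAC (-2.41 ± 0.65 (adjusted p = 0.0447)), and Cmya5, which anchors dyads, 469 and 499 CPM after sham surgery and 99.7, 79.004 and 186 CPM after TAC (-1.99 ± 0.40 (adjusted p = 0.0156)). Guidance calls were 0 when either sham library, WT TAC 1 or WT TAC 2 was left out, and 8 lower and 1 higher without WT TAC 3. The dyad calls were 0 without either sham library or WT TAC 2, 1 higher and 0 lower without WT TAC 1, and 4 higher and 6 lower without WT TAC 3, so both falls were lost in the first 4 of these refits.

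Single splicing factors and muscle ubiquitin ligase genes also fell. Rbfox1, a splicing factor of heart and neurons, measured 34.4 and 42.5 CPM after sham surgery and 3.69, 4.09 and 9.97 CPM after TAC (-2.69 ± 0.44 (adjusted p = 0.00613)), and Khdrbs3 changed by -1.04 ± 0.24. They were the only calls among 42 splicing regulators (4.76% lower; median -0.12, and 0.25 with library totals). Srrm4, a splicing factor of neural microexons outside that list, measured 11.4 and 17.2 CPM after sham surgery and 1.01, 0.7597 and 1.298 CPM after TAC (-3.79 ± 0.66 (adjusted p = 0.00817)). Of 51 ubiquitin ligase and autophagy genes 0 were higher, 5 lower (9.804%) and 46 not called (median -0.39, and -0.01 with library totals). Asb15, an ankyrin repeat protein of muscle ubiquitin ligases, measured 80.5 and 111 CPM after sham surgery and 7.27, 4.67 and 24.6 CPM after TAC (-2.97 ± 0.69 (adjusted p = 0.0251)), and Asb10 and Asb14 changed by -1.51 ± 0.33 and -1.49 ± 0.32. Kbtbd13 and Klhl38, kelch proteins of muscle, changed by -2.74 ± 0.68 and -1.54 ± 0.39. Within the mitogen-activated protein kinase genes 3 of 49 were lower (6.12%) and 0 higher, all of the p38 branch (median -0.25, and 0.12 with library totals). Mapk14, p38 alpha itself, measured 54.02 and 50.1 CPM after sham surgery and 16.7, 18.5 and 26.2 CPM after TAC (-1.35 ± 0.31 (adjusted p = 0.0258)), its activator Map2k6 5.31 and 4.57 CPM after sham surgery and 1.07, 0.643 and 1.45 CPM after TAC (-2.21 ± 0.48 (adjusted p = 0.0208)), and its target Mapkapk3 changed by -1.18 ± 0.31. None of the 49 kinase genes passed when either sham library, WT TAC 1 or WT TAC 2 was left out. Ubiquitin ligase calls were 0, 0, 0, 1 and 13 lower, and splicing calls 0, 0, 2, 1 and 6 lower, in the order WT sham 1, WT sham 2 and WT TAC 1 to 3 left out.

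A few transcription factors of matrix and stress rose, and a few nuclear receptors fell. Of 102 matrix and stress factors 5 were higher (4.902%, near the 3.88% of all genes tested), 0 lower and 97 not called (median 0.49). Meox1, a homeobox factor of activated fibroblasts, measured 9.38 and 4.49 CPM after sham surgery and 52.6, 41.5 and 34.2 CPM after TAC (2.62 ± 0.42 (adjusted p = 0.00595)). Scx, the tendon factor scleraxis, measured 4.75 and 2.13 CPM after sham surgery and 20.3, 22.8 and 9.04 CPM after TAC (2.33 ± 0.63), Runx1 0.2501 and 1.02 CPM after sham surgery and 2.92, 4.85 and 2.596 CPM after TAC (2.46 ± 0.68) and Etv4, an ETS factor, 0.188 and 0.0787 CPM after sham surgery and 2.03, 3.62 and 1.35 CPM after TAC (4.02 ± 1.03). Hif1a, the hypoxia factor, changed by 1.24 ± 0.33. Of 47 nuclear receptors and co-regulators 0 were higher and 4 lower (8.51%), and only 8 changes were above 0 (median -0.58; -0.25 with library totals). Nr3c2, the mineralocorticoid receptor, measured 20.3 and 20.4 CPM after sham surgery and 4.17, 2.98 and 6.44 CPM after TAC (-2.16 ± 0.42 (adjusted p = 0.0141)). Perm1, a muscle co-regulator of mitochondrial genes, measured 331 and 345 CPM after sham surgery and 63.7, 73.04 and 133 CPM after TAC (-1.91 ± 0.40 (adjusted p = 0.0175)), and Thrb, a thyroid hormone receptor, and Ppara, the receptor that drives fat oxidation, changed by -1.60 ± 0.35 and -1.33 ± 0.29. Factor calls were 1, 0, 1, 1 and 12 higher, and receptor calls 0, 0, 0, 0 and 12 lower, without WT sham 1, WT sham 2 and WT TAC 1 to 3. Of 29 YAP and TEAD target genes 5 were higher and 0 lower (median 0.10), among them Nt5e, the ectonucleotidase CD73, at 10.7 and 13.9 CPM after sham surgery and 82.8, 61.1 and 45.7 CPM after TAC (2.36 ± 0.54), and the 5 calls became 0, 0, 3, 3 and 8 in that order.

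Beyond the oxidation enzymes, some genes that maintain mitochondria fell. Of 46 genes of coenzyme Q, iron-sulfur clusters and mitochondrial transfer RNA 0 were higher, 7 lower (15.2%) and 39 not called (median -0.43, and -0.12 with library totals). The synthetases Sars2 and Cars2, which charge transfer RNAs inside mitochondria, changed by -1.65 ± 0.41 and -1.29 ± 0.28. Pdss2, which starts the coenzyme Q tail, measured 31.3 and 27.8 CPM after sham surgery and 10.96, 8.65 and 15.8 CPM after TAC (-1.32 ± 0.33 (adjusted p = 0.0338)). None of the 20 synthetases of the cytosol passed (median -0.23). Of 62 genes of mitochondrial shape, import and quality control 0 were higher, 5 lower (8.06%) and 57 not called (median -0.27, and 0.02 with library totals). Pink1 (chromosome 4, 138313409 to 138326307, minus strand), the kinase that marks damaged mitochondria, measured 520.1 and 417 CPM after sham surgery and 129, 182 and 188 CPM after TAC (-1.49 ± 0.28 (adjusted p = 0.0113)). Twnk and Polg, the helicase and the polymerase of mitochondrial DNA, measured 26.01 and 30.3 CPM after sham surgery and 7.98, 8.12 and 14.2 CPM after TAC and 30.8 and 30.7 CPM after sham surgery and 11.97, 11.5 and 17.7 CPM after TAC (-1.48 ± 0.34 and -1.16 ± 0.27). Oma1, a stress protease, and Mfn1, a fusion protein, changed by -1.17 ± 0.26 and -1.11 ± 0.29. With library totals 0 and 1 members were called lower, and without WT sham 1 or WT sham 2 none of either list was called. Lower calls were 1, 0 and 12 in the first list and 1, 1 and 12 in the second without WT TAC 1, 2 and 3.

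Glycogen and sugar genes outside the fixed lists were also among the falls. Fbp2, the muscle fructose bisphosphatase, measured 25.6 and 18.2 CPM after sham surgery and 2.32, 4.32 and 3.69 CPM after TAC (-2.66 ± 0.35 (adjusted p = 0.00273)), and Pdp2, a phosphatase that activates pyruvate dehydrogenase, 20.6 and 17.5 CPM after sham surgery and 1.31, 2.45 and 3.06 CPM after TAC (-3.06 ± 0.48 (adjusted p = 0.00551)). Ppp1r3b, a glycogen-targeting subunit, measured 19.9 and 19.8 CPM after sham surgery and 4.71, 4.91 and 9.04 CPM after TAC (-1.67 ± 0.40 (adjusted p = 0.0295)). These 3 genes were named after their values were seen. Among 238 solute carrier genes 5 were higher and 16 lower (2.10% and 6.72%; median -0.09, and 0.25 with library totals). The organic cation carriers Slc22a3 and Slc22a5 changed by -2.28 ± 0.45 and -1.21 ± 0.27, and Slc25a42, which brings coenzyme A into mitochondria, by -2.39 ± 0.65. Slc2a4 and Slc2a12, insulin-responsive glucose carriers, changed by -1.36 ± 0.29 and -2.16 ± 0.41, while Slc16a3, the lactate exporter, rose by 2.29 ± 0.48. None of the 238 passed without WT sham 1 or without WT sham 2, while 1, 1 and 15 were higher and 3, 3 and 30 lower without WT TAC 1, 2 and 3. With library totals the split was 11 higher and 4 lower.

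Among enzymes that handle drugs and aldehydes most calls were falls. Of 58 tested members 3 were higher (5.17%) and 9 lower (15.5%; median -0.28, and 0.04 with library totals). Beside Ces1d and Acsm5, Inmt, a methyltransferase of indoles, measured 20.8 and 9.998 CPM after sham surgery and 1.67, 2.92 and 0.623 CPM after TAC (-3.15 ± 0.82 (adjusted p = 0.0392)). The glutathione transferases Gstk1, Gstm7 and Gstm1 changed by -1.86, -1.78 and -1.75, and Gstm1 and Gstm7 are close copies. The aldehyde dehydrogenases Aldh4a1, Aldh6a1 and Aldh2 changed by -1.68, -1.37 and -1.35. In contrast Aldh1a2, which makes retinoic acid, Cyp1b1 and Akr1b8 rose by 2.38 ± 0.49, 2.61 ± 0.45 and 2.65 ± 0.63. Lower calls were 1, 4, 6, 5 and 11 without WT sham 1, WT sham 2 and WT TAC 1, 2 and 3, and 6 with library totals, and higher calls 0, 0, 1, 2, 5 and 4.

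Amino acid, nucleotide and lipid genes had a few calls in both directions. Their shares are set beside the 3.88% higher and 3.04% lower of all genes tested. Of 69 amino acid and one-carbon genes 5 were higher (7.25%) and 6 lower (8.70%; median 0.35). Psat1, of serine synthesis, and Mthfd2, of mitochondrial folate, rose by 2.38 ± 0.51 and 1.99 ± 0.47, while Cth, which makes cysteine, changed by -2.82 ± 0.72 and the transaminases Gpt, Gpt2 and Got1 by -1.81, -1.30 and -1.06. Cth measured 3.44 and 4.17 CPM after sham surgery and 0.417, 0.877 and 0.312 CPM after TAC. Of 53 purine, pyrimidine and NAD genes 6 were higher (11.3%) and 3 lower (5.66%; median -0.13, and 0.21 with library totals). Nmrk2, a muscle kinase that makes NAD from nicotinamide riboside, measured 4.501 and 9.21 CPM after sham surgery and 197, 174 and 73.01 CPM after TAC. Bst1, an NAD-consuming surface enzyme, measured 0.2501 and 0.315 CPM after sham surgery and 3.46, 4.91 and 1.04 CPM after TAC (3.44 ± 0.88), and Nnmt, which methylates nicotinamide, 2.88 and 1.02 CPM after sham surgery and 28.8, 20.8 and 3.89 CPM after TAC (3.17 ± 0.88). Of 64 lipid storage and phospholipid genes 4 were higher (6.25%) and 3 lower (4.69%; median -0.12, and 0.19 with library totals). Sphk1, which makes sphingosine 1-phosphate, measured 0.938 and 0.315 CPM after sham surgery and 12.2, 20.6 and 6.75 CPM after TAC (4.34 ± 0.73 (adjusted p = 0.00694)), and the phospholipases Pla2g4a and Pla2g5 moved apart, at 2.28 ± 0.43 and -2.07 ± 0.35. Gpam and Dgat2, of triglyceride synthesis, changed by -1.79 ± 0.47 and -1.60 ± 0.33. Without WT sham 1 no member of these 3 lists was called. Without WT sham 2 the calls were 1 higher in the purine list and 1 lower in the lipid list. Without WT TAC 1, 2 and 3 the amino acid list had 0, 1 and 13 higher and 1, 1 and 10 lower, the purine list 2, 4 and 10 higher and 1, 0 and 5 lower, and the lipid list 3, 3 and 7 higher and 1, 1 and 9 lower.

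Several genes of phagocytes and lysosomes rose, together with macrophage markers. Of 53 genes 13 were higher (24.5%) and 0 lower, and 46 changes were above 0 (median 1.19). Trem2, a lipid-sensing receptor of macrophages, measured 1.0003 and 0.6298 CPM after sham surgery and 25.6, 43.4 and 3.06 CPM after TAC (4.85 ± 0.97 (adjusted p = 0.0155)), Lgals3, galectin 3, 1.25 and 2.52 CPM after sham surgery and 50.04, 107 and 19.4 CPM after TAC (4.97 ± 0.79 (adjusted p = 0.00595)) and Spp1, osteopontin, 0.688 and 0.866 CPM after sham surgery and 37.2, 75.8 and 3.43 CPM after TAC (5.64 ± 1.25 (adjusted p = 0.0225)). WT TAC 3 was the lowest TAC library for these 3 genes. Ctsk, the protease cathepsin K, changed by 3.37 ± 0.68. Of 17 macrophage and monocyte markers 5 were higher and all 17 changes were above 0 (median 1.71). Their summed level was 416 and 272 CPM in sham and 2461, 2818 and 534 CPM in TAC libraries. Lyz2 alone gave 215 and 111 CPM of these sums in sham and 1789, 1847 and 196 CPM in TAC libraries. The 13 calls of the phagocyte and lysosome list became 8, 7 and 27 higher without WT TAC 1, 2 and 3, and 28 with library totals. Heme oxygenase, Hmox1, which phagocytes use to break down heme, measured 5.25 and 5.905 CPM after sham surgery and 40.3, 66.8 and 15.8 CPM after TAC (2.88 ± 0.55 (adjusted p = 0.0126)). Of 39 iron and heme genes 2 were higher and 2 lower (5.13% each, against 3.88% and 3.04% of all genes tested).

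Other cell type markers moved unevenly. Of 15 fibroblast markers 6 were higher and 1, Scara5, lower, and the list summed to 1407 and 1403 CPM in sham and 2787, 2104 and 2191 CPM in TAC libraries. Scara5 measured 13.5 and 17.01 CPM after sham surgery and 2.98, 3.45 and 4.52 CPM after TAC (-2.06 ± 0.50 (adjusted p = 0.0299)). None of 13 endothelial, 7 lymphatic and 4 endocardial markers tested passed, with summed endothelial levels of 1703 and 1147 CPM in sham and 2197, 1514 and 1983 CPM in TAC libraries. Fabp4, which is also in the fat cell list, gave 851 and 535 CPM of these sums in sham and 1600, 990 and 979 CPM in TAC libraries. The median change of the 13 endothelial markers was 0.15. No marker of T, B and NK cells (8 tested) or of neutrophils and mast cells (9 tested) passed, and their lists summed to 28.8 CPM or less in each library. None of the 5 tested fat cell markers passed, their median was 2.88, and WT TAC 3 was far above every other control library in all of them but Fabp4. Adipoq, adiponectin, measured 0.7502 and 0 CPM after sham surgery and 1.37, 0.467 and 6.91 CPM after TAC, Cfd, the protease adipsin, 1.38 and 0.157 CPM after sham surgery and 2.09, 1.52 and 23.2 CPM after TAC, and Car3, a carbonic anhydrase, 1.94 and 0.0787 CPM after sham surgery and 3.93, 2.22 and 35.8 CPM after TAC. Red blood cell and platelet markers summed to 649.6 and 153 CPM in sham and 3082, 1339.5 and 300.0 CPM in TAC libraries, with WT TAC 1 the highest, and 1 of 8, Itga2b, was called. The cartilage genes Fmod and Comp were 2 of 3 tested cartilage and bone markers and rose, Comp from 0.313 and 0.787 to 2.38, 5.73 and 18.4 CPM (4.02 ± 0.94 (adjusted p = 0.0263)). Fibroblast calls were 1, 2, 5, 5 and 6 higher, and macrophage calls 0, 0, 2, 1 and 14 higher, without WT sham 1, WT sham 2 and WT TAC 1, 2 and 3. The part of these cell types in the gene groups above was not tested.

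Few long non-coding RNAs were called, and those in both directions. Of 744 tested, 18 were higher and 20 lower, with a median of 0.32. Both shares lie below the 3.88% higher and 3.04% lower of all genes tested. Chaer1 (chromosome 5, 77138471 to 77140252, minus strand), a lincRNA named for its chromatin role in hypertrophy, measured 2.06 and 0.945 CPM after sham surgery and 0.0596, 0 and 0 CPM after TAC. Its 1 count over the TAC libraries gives a ratio of sham to TAC of 83.4 (95% counting interval 14.2 to 3364; adjusted p = 0.0241), and 50.2 without WT sham 1. Foxo6os measured 9.57 and 7.56 CPM after sham surgery and 2.09, 1.23 and 2.18 CPM after TAC (-2.22 ± 0.35 (adjusted p = 0.00559)) and Uckl1os 2.63 and 2.598 CPM after sham surgery and 0.238, 0.117 and 0.208 CPM after TAC (-3.74 ± 0.93 (adjusted p = 0.0334)). Mhrt, antisense in the myosin locus, changed by -1.15 ± 0.24, while Myh6 beside it was at -1.36 ± 0.63 (adjusted p = 0.195). Among rises, the lincRNA 4833412C05Rik (chromosome 7, 67784538 to 67804139, minus strand) had 0 sham counts and 9.41, 7.36 and 5.04 CPM after TAC, at least 68.6-fold higher (adjusted p = 0.00244). Lockd, near the cell cycle gene Cdkn1b, had 2 sham counts and a ratio of 38.6 (95% counting interval 10.5 to 322), and 24.1 without WT TAC 1. 3300005D01Rik and Gm15867, also with 0 sham counts, were at least 58.8-fold and 19.98-fold higher, and the bound of 3300005D01Rik was 88.6-fold without WT TAC 3. The hosts of small RNAs Gas5, Snhg18 and Mir22hg changed by 1.97 ± 0.50, 2.98 ± 0.72 and 2.61 ± 0.68, and Dnm3os, the antisense host of the miR-199a and miR-214 genes, by 2.58 ± 0.65. No source states the strand setting of the counting, so reads of an antisense gene and of its partner cannot be told apart. Of 21 tested members of the fixed list of cardiac and nuclear non-coding RNAs 6 were higher and 1 lower, and none passed when either sham library or WT TAC 1 was left out.

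Several lists showed few calls, near or below the 3.88% higher and 3.04% lower of all genes tested. The shares were 4.55% higher for cell death, 4.17% higher for imprinted genes and 3.23% each way for phosphodiesterases, cyclases and RGS proteins. They were 1.59% lower for chromatin enzymes, 1.96% each way for ribosome assembly and 3.23% lower for cholesterol genes. Of 63 chromatin enzymes 0 were higher and 1, Hdac11, lower at -1.46 ± 0.34 (median -0.21), and of 51 ribosome assembly and translation genes 1 was higher and 1 lower (median 0.10). Of 31 cholesterol genes 0 were higher and 1, Fdft1, lower at -1.47 ± 0.33 (median 0.26). Of 44 cell death genes 2 were higher and 0 lower with a median of 0.85, Birc5 at 2.86 ± 0.67 and Bid at 2.33 ± 0.62. Of 24 imprinted fetal growth genes 1, Mest, was higher at 2.38 ± 0.58 (median 0.55). Among 62 phosphodiesterase, cyclase and RGS genes Adcy7 and Pde1a were higher and Adcy9 and Adcy1 lower (median -0.06). Adcy7 measured 4.38 and 5.196 CPM after sham surgery and 16.6, 18.4 and 18.9 CPM after TAC and Adcy9 13.4 and 13.6 CPM after sham surgery and 2.44, 3.92 and 6.02 CPM after TAC, so the cyclases moved in opposite directions (1.91 ± 0.35 and -1.70 ± 0.44). Only 3 of 350 Zfp zinc finger genes and 0 of 53 F-box genes were called. Without WT sham 1 or WT sham 2 no member of these lists was called, and without WT TAC 3 each list had more calls than before. With library totals the medians of the chromatin list and of the phosphodiesterase, cyclase and RGS list turned to 0.11 and 0.28. A gene that missed the threshold is not shown to be unchanged.

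**Figure D5:**
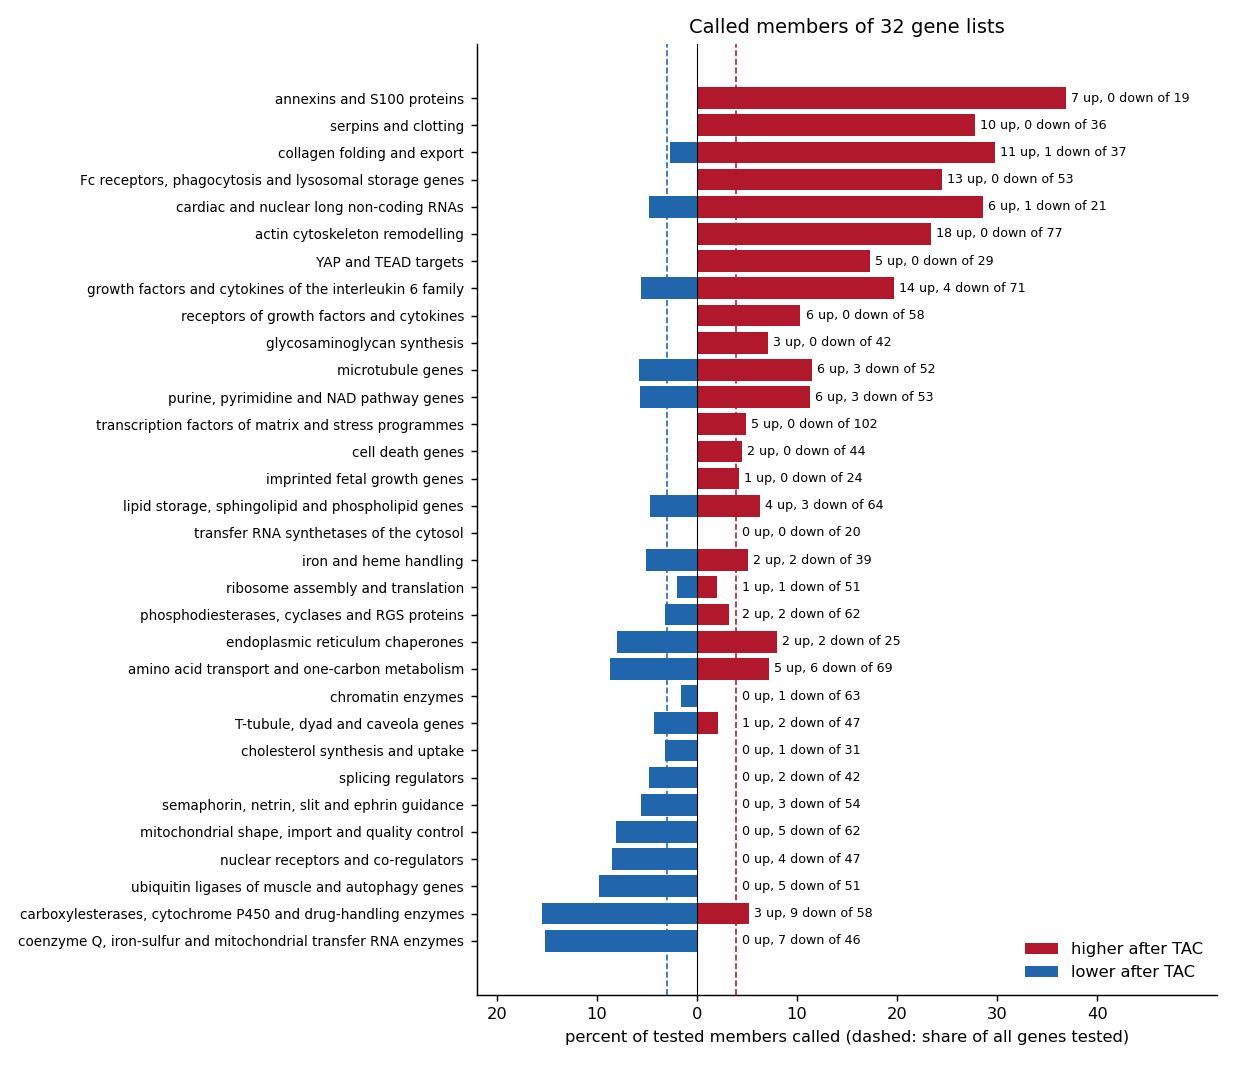
Bars give, for each of 32 gene lists, the percent of tested members called higher (right, red) or lower (left, blue) after TAC in control hearts, with the counts printed beside them and dashed lines at the shares of all genes tested (3.88% and 3.04%). Annexins and S100 proteins (36.8% higher), collagen folding (29.7%) and the non-coding RNA list (28.6%) reach farthest to the right, and the coenzyme Q and drug-handling lists farthest to the left. The lists were chosen with earlier results of these data known, so a bar beyond a dashed line is a description and not a test.

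The response of the control hearts was set against that of the libraries labelled Lmnb2 KO, which share no library with them and stand in the same fit. Lmnb2 measured 0.649, 1.81 and 2.43 CPM in their sham and 9.72, 3.24 and 4.46 CPM in their TAC libraries, the last overlapping the control TAC values, so KO stands below for the libraries labelled so. The difference of the responses passed for 0 of 14619 genes (0%) by edgeR, with 434 at an unadjusted p under 0.05, 2 by DESeq2 and 0 by limma-voom, and the smallest edgeR adjusted p was 0.423. Of the 1011 genes called in the controls 1003 (99.2%) changed in the same direction in the KO libraries, against 74.8% of all genes tested. In the KO libraries 687 genes (4.7%) were called, and 446 genes were called in the same direction in both, which is 44.1% of the control calls and 64.9% of the KO calls. Side by side, Cilp changed by 6.45 in controls and 5.89 in KO, Emp1 by 3.23 and 2.88, and Kcnj3 by -2.73 and -2.08. Scn4b stood at -4.78 and -2.02, Srrm4 at -3.79 and -0.96 and Ppp1r3b at -1.67 and -0.01, with adjusted p for the difference of 0.992, 0.992 and 0.992.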

How the data were processed

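RNA of mouse ventricular myocardium was sequenced in bulk, at 25 ± 3 M reads per sample per the labels' protocols. The authors deposited raw counts per Ensembl gene, and per the submitters' processing notes used STAR 2.5.1, featureCounts and DESeq2 with build GRCm38. Neither the annotation version nor the strand or multi-mapping settings of the counting are stated there. Identifiers were matched to GENCODE M21 (46005 of 46517).

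Genes were kept by filterByExpr, libraries scaled by TMM, and 1 mean per group fitted to all 11 libraries with edgeR 4.0.16 (R 4.3.3; 7 residual degrees of freedom; 2-sided quasi-likelihood tests, Benjamini-Hochberg adjustment, threshold 0.05), so KO libraries share in the estimate of spread. Standard errors are the change over the root of F and approximate. The fit was tested on simulated data. DESeq2 1.42.0 and limma 3.58.1 served as alternatives.

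Members and gene lists were chosen with earlier results of these data known. Named genes are up to 4 called members per list with the largest change, a mean of 1 CPM or more in 1 group and no overlap between groups, the 15 largest rises and falls outside textbook, predicted, ribosomal protein and mitochondrially encoded genes, the 10 largest gains and losses in CPM, the 8 smallest p outside the lists and 5 non-coding rises and falls. Other genes, such as further called list members, families and the 27 stable genes, were named after their values were seen. Intervals (95%) and the floor of 3 counts, which equals 0.174 to 0.189 CPM in a control library, cover counting error only. With genes at 0 counts set to their bounds, 0 list medians moved by over 0.01. Replicates differed beyond counting noise, and none was a duplicate. A few genes are not reported here.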

Additional observations from a re-analysis of the deposited data

How the results depend on the processing

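The 23 other settings changed the scaling, filter, test, covariates or libraries, and 1 of them (without both WT TAC 3 and KO TAC 1) was chosen after seeing the data. No gene of the 1011 changed direction in a setting that tested it. Their TAC libraries all lay on one side of both sham libraries, so leaving out a library could hardly reverse a direction. The same limit applies to the named genes below. Leaving out 1 library gave 30 to 2663 calls (20 to 1436 higher, 10 to 1227 lower), and 0 to 0 calls for the difference between WT and KO. DESeq2 called 2197 genes (1336 higher, 861 lower) and no filter on low counts 2243 (1433 and 810). The fit to the 5 control libraries called 465 (327 and 138), the ribosomal protein share as a covariate 536 (360 and 176), the title letter as a covariate 608 (359 and 249) and titles ending in M alone 204 (163 and 41). Without both WT TAC 3 and KO TAC 1 there were 4374 (2297 and 2077). Library totals gave 1044 higher and 133 lower, and limma-voom 319 higher. The difference between WT and KO was called for 2 genes by DESeq2, 80 without a filter and 1 without both of those libraries. For 175 genes of the naming rule 2984 of 4024 refits kept the call, 1040 lost it and 0 changed sign.

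No paired analysis was possible because the labels give no replicate numbers that join sham and TAC mice. With 2 sham libraries the fit leans on the spread of the other groups, and calls near the threshold, such as those of P4hb and Tnni3 (adjusted p = 0.0498 and 0.0499), were lost in 14 and 16 of the 23 settings. Without 1 sham library, the lone one is assumed to vary like the other groups. At this depth genes under about 1 CPM rest on few counts.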

Other observations

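Other gene families of the control hearts gave a few more calls, all named after their values were seen. Of 39 DnaJ co-chaperone genes 0 were higher and 4 lower after TAC (10.3%, against 3.04% of all genes tested), with a median of -0.08. Dnajc28 measured 79.3 and 82.2 CPM after sham surgery and 10.1, 13.03 and 24.9 CPM after TAC (-2.33 ± 0.35; edgeR adjusted p = 0.00437), with all TAC libraries below both sham libraries. Of 60 Rab genes, which encode small GTPases of vesicle traffic, 3 were higher (5%) and 1 lower (1.67%). Both shares were near the 3.88% and 3.04% of all genes tested. Rab31 measured 13.7 and 13.4 CPM after sham surgery and 85.3, 97.9 and 38.01 CPM after TAC (2.44 ± 0.46) and Rab3a, of regulated secretion, 35.6 and 31.3 CPM after sham surgery and 10.1, 9.58 and 12.6 CPM after TAC (-1.64 ± 0.26). DnaJ calls were 0, 1, 1, 1 and 9 lower, and Rab calls 0, 0, 1, 1 and 9 higher, without WT sham 1, WT sham 2 and WT TAC 1, 2 and 3. Star, which carries cholesterol into mitochondria for steroid synthesis, measured 0.5002 and 1.496 CPM after sham surgery and 38.2, 57.7 and 16.1 CPM after TAC (5.25 ± 0.82).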
